A study of Mus musculus with 12 samples.

Results

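The 4 mature miRNAs mmu-miR-451a, mmu-miR-144-3p, mmu-miR-144-5p, and mmu-miR-486a-5p, all abundant in red blood cells, were followed in microglial exosomes of mice after repetitive mild traumatic brain injury (rmTBI), as a check of blood RNA in the preparations. They were chosen by name, and all 4 were found among the 1881 mouse miRNAs of the array. The data are 12 single-color Agilent arrays, 3 for sham mice and 3 each for rmTBI mice at 3, 14, and 42 days post-injury (DPI). Adult male C57BL/6 mice in the injury groups received 4 closed-head impacts from an electronic cortical impact device, each 48 h apart, and sham mice went through every step except the impact. All mice were perfused through the heart with PBS, so the vessels of sham and injured brains were both rinsed. Particles were precipitated from papain-digested brain, from bilateral cortex and hippocampus by the study's methods and from the injured hemisphere by the labels, and those carrying CD11b, a surface protein of microglia and other myeloid cells, were pulled down with an antibody. The labels number the arrays 1 to 3 in a group without saying whether each came from its own animal, or whether animals were pooled, so the p-values below measure the spread between these samples, which may be technical.

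miR-451a and miR-144 are made from one transcript that GATA1 switches on in red cell precursors. The hairpin of miR-451a is cut by AGO2 instead of Dicer and gives 1 mature strand, while the miR-144 hairpin gives a 3p and a 5p strand. miR-486 lies in an intron of Ank1, which encodes a membrane skeleton protein of red cells, and it is also abundant in muscle. Because mature red cells are rich in miR-451a, its level is a common sign of lysed red cells in plasma and in vesicle preparations, where it is usually set against miR-23a-3p, a miRNA that red cells add little to.

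The sequences are shown to make plain which strands the probes had to capture and whether the members with a sequence here share a seed. They are from RefSeq (GRCm38.p6), 5′ to 3′, with the seed, bases 2 to 8, in capitals, and 3 of the 4 members have an entry in the table used here. miR-451b is added because its hairpin overlaps that of miR-451a on the opposite strand. It is a separate miRNA with its own probes.
miR-451a: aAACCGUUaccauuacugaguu
miR-144-3p: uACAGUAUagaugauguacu
miR-144-5p: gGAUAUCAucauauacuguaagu
miR-451b: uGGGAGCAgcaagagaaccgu
Mature miR-451a lies at chr11:78073186-78073207 on the plus strand. The 2 strands of miR-144 lie upstream of it, miR-144-5p at chr11:78073010-78073032 and miR-144-3p at chr11:78073047-78073066, also on the plus strand, and 99 bases separate the hairpins of Mir144 and Mir451a. Mature miR-451b lies at chr11:78073219-78073239 on the minus strand. Of the other mature miRNAs in that table of 1679, 0 carry the seed of miR-451a, of either miR-144 strand, or of miR-451b. miR-486a-5p is given by name.

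The arrays differed in brightness with group. The 75th percentile of the 230 miRNAs detected on all 12 arrays was 217 to 348 scanner units in sham. At 3 DPI it was 401 to 619, at 14 DPI 588 to 1173, and at 42 DPI 1385 to 2936. Between 243 and 579 miRNAs were detected per array. Slide 1 held the 3 sham arrays and replicate 1 of 3 DPI, and slide 2 held the other 8, so slide and injury cannot be told apart for 14 and 42 DPI against sham. In what follows, a signal is the sum of a miRNA's probes in scanner units, a scaled level is log2 of that sum over the array's 75th percentile, and detection on an array means that a probe of the miRNA had more than 0.5 of its spots well above background. No spot was saturated. The number of arrays, 3 a group, limits the precision of every comparison.

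mmu-miR-451a was detected on 6 of the 12 arrays, all of them from injured mice, and its signal differed widely between replicates of a group. The scanner software's own call marked it on 9 arrays, sham replicates 2 and 3 among them. Each array carries 2 probes for it with 15 spots each. In sham the signal was 9.44, 17.4, and 14.8 on replicates 1 to 3. At 3 DPI it was 47.3, 36.0, and 3.50. At 14 DPI it was 7.06, 41.3, and 57.8, and at 42 DPI it was 165.6, 19.3, and 95.3. The 3 sham arrays were all dim and none was well above background, and in each injury group 2 arrays were well above background and 1 was not (replicate 3 at 3 DPI, replicate 1 at 14 DPI, and replicate 2 at 42 DPI). The fold between the brightest and the dimmest array of a group was 1.84 in sham, 13.5 at 3 DPI, 8.18 at 14 DPI, and 8.60 at 42 DPI.

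**Figure D1:**
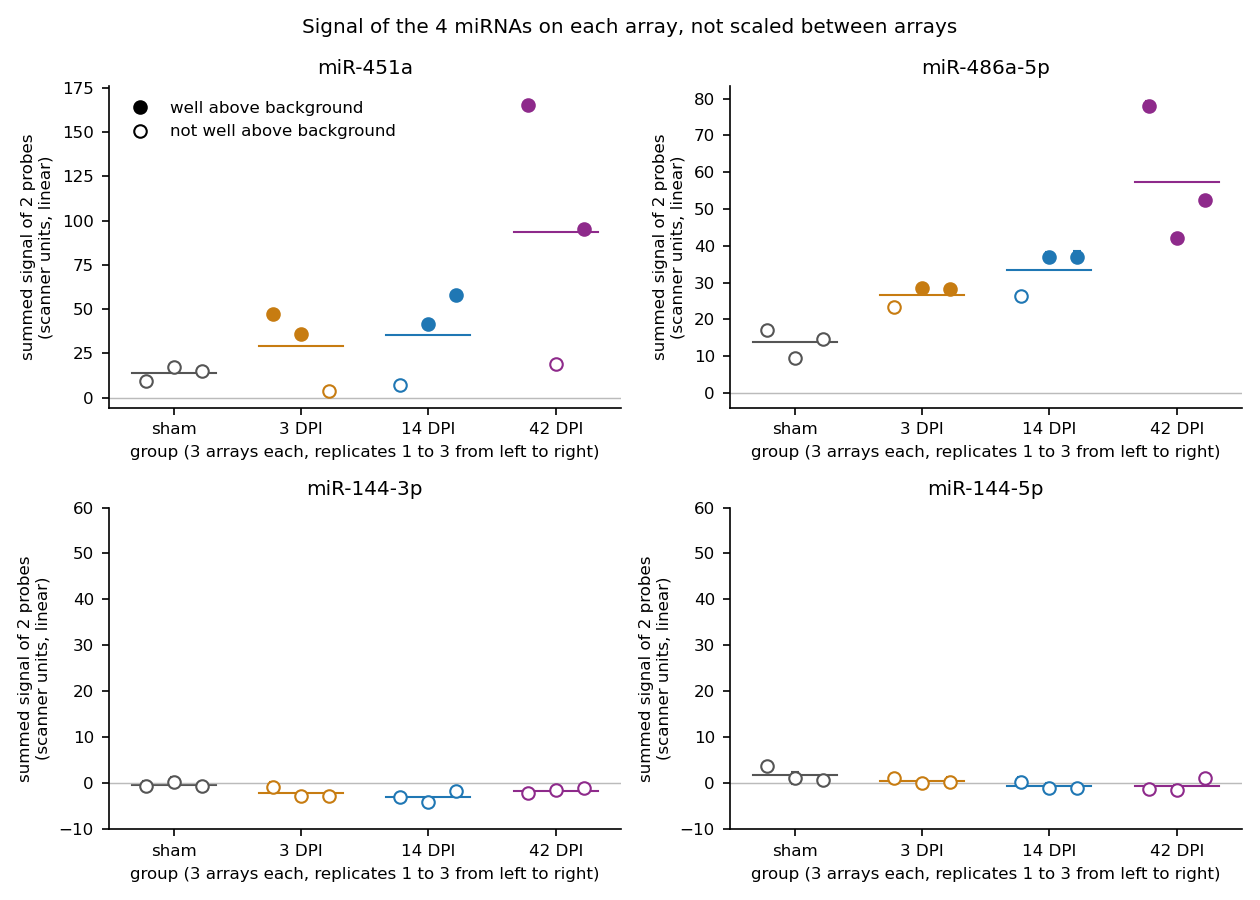
Summed signal of the 2 probes of each miRNA on each array (linear scanner units, not scaled between arrays, vertical scales differ), with replicates 1 to 3 from left to right in each group, error bars for the SE over spots, mostly smaller than the point, and lines for the group mean. miR-451a stood well above background on 2 of 3 arrays of each injury group and on 0 of 3 sham arrays, with its lowest signal of 3.50 on replicate 3 of 3 DPI and its highest of 165.6 on replicate 1 of 42 DPI. Detection on 0 sham arrays and at least 6 of the 9 injury arrays was seen for 106 of the 1881 miRNAs. Both miR-144 strands lay near 0 on all 12 arrays.

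The low arrays were low at both probes. On replicate 3 of 3 DPI the probe means were 1.90 and 1.59, against 17.0 and 30.2 on replicate 1 of that group, and on replicate 2 of 42 DPI they were 6.57 and 12.7, against 57.7 and 107.8 on replicate 1. Across the 12 arrays the log2 means of the 2 probes had a Pearson r of 0.98, and their ratio ran from 0.838 to 2.52. On replicate 1 of 42 DPI all kept spots of both probes were well above background. On replicate 3 of 3 DPI and replicate 1 of 14 DPI no spot was. On every array the spots of the members lay within 2.48 µm of the grid fitted to that array, so none was displaced from it.

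**Figure D2:**
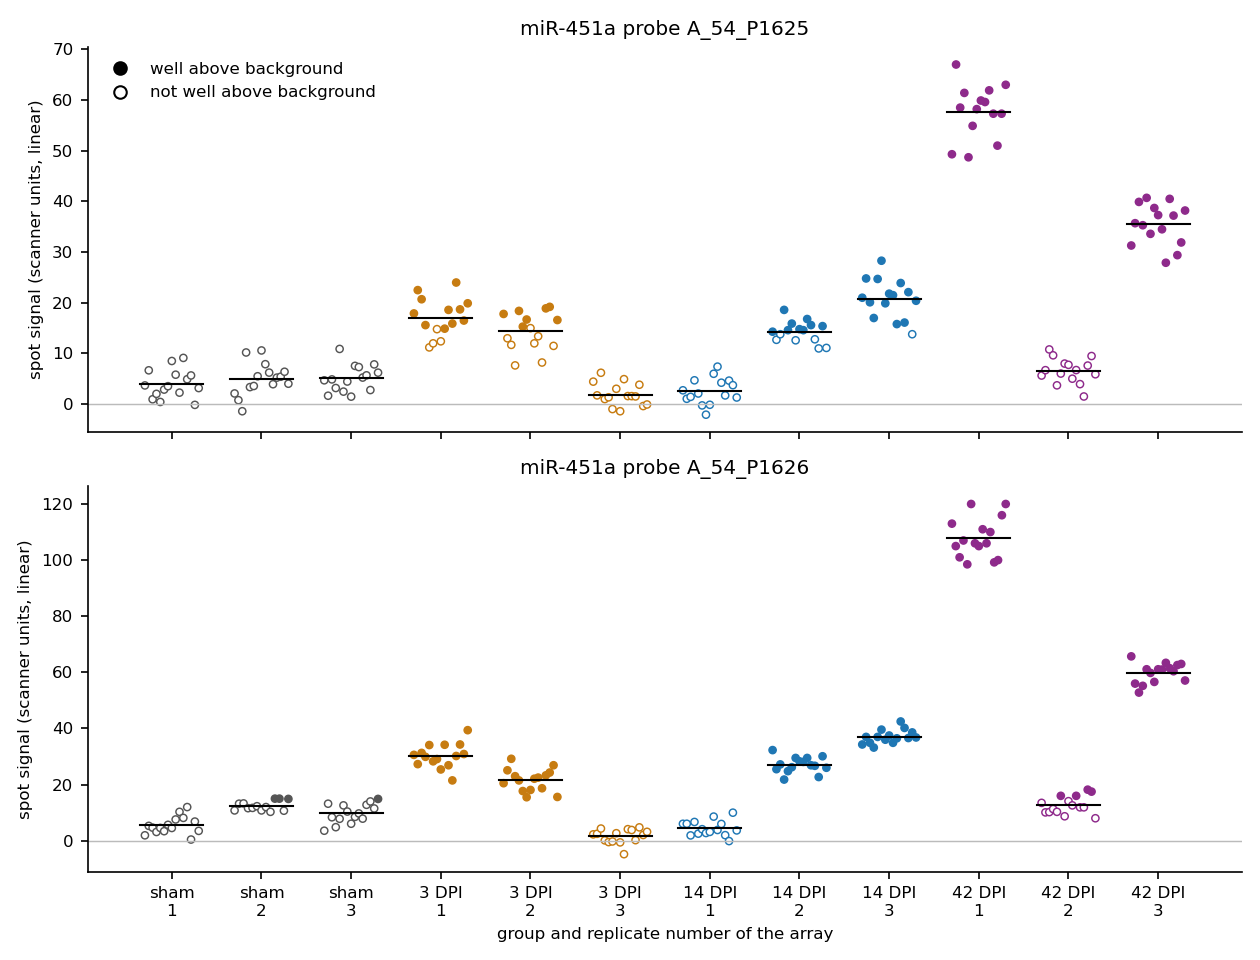
Signal of every kept spot of the 2 miR-451a probes (linear scanner units) on the 12 arrays, filled where the scanner software called the spot well above background, with a line at the mean. The spots of an array stay together at both probes: on replicate 3 of 3 DPI the means were 1.90 and 1.59, and on replicate 1 of 42 DPI they were 57.7 and 107.8.

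This spread was wide beside that of other miRNAs. At 3 DPI the scaled level of miR-451a before any floor ranged over 3.92 on the log2 scale, and 0 of the 381 miRNAs detected on 2 or 3 arrays of that group had a wider range, their median range being 0.92. At 42 DPI it ranged over 2.02, and again 0 of 543 had a wider range, with a median of 0.26. At 14 DPI it ranged over 2.11, and 40 of 470 were wider, with a median of 1.02. miR-486a-5p, read from the same arrays, ranged over 0.44, 0.50, and 0.19 in those groups, below the median of each. In scaled level, the arrays low in miR-451a were the highest of their group in miR-486a-5p, at -4.00, -4.49, and -5.04. In the unscaled signal, replicate 1 of 14 DPI (26.2) and replicate 2 of 42 DPI (42.0) were the lowest of their group in miR-486a-5p too.

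Scaled to each array, miR-451a in sham was -4.92, -3.64, and -4.55. It was -3.09, -4.11, and -7.01 at 3 DPI, -6.38, -4.83, and -4.27 at 14 DPI, and -4.15, -6.17, and -4.28 at 42 DPI. The group means, in falling order, were -4.37 ± 0.65 in sham, -4.73 ± 2.04 at 3 DPI, -4.87 ± 1.13 at 42 DPI, and -5.16 ± 1.09 at 14 DPI (SD, n = 3 each). Every group overlapped every other, and no neighbors in that order differed beyond their spread. In an exact permutation test, two-sided, the 6 differences between groups had p from 0.5 to 0.9 (0.9 for each after Benjamini-Hochberg adjustment over the 6), where 3 arrays against 3 cannot go below 0.1. On slide 2 alone the difference between 42 and 14 DPI was 0.29 (exact permutation p = 0.6).

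By the detection rule used here miR-451a was not detected on any sham array, though its signal there was above 0, so only a bound was used. The sham bound, the mean over arrays of the higher of the dimmest detected miRNA and miR-451a itself, was -4.14, above the mean of each injury group before the floor. With levels below the floor of -5.00 raised to it, the mean at 3 DPI became -4.06, at least 1.06-fold above the bound, and without the floor it was below the bound. No fold against sham is therefore given for miR-451a. In no group did all 3 arrays detect miR-451a, which kept it out of the 486 miRNAs compared by limma.

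Neither strand of miR-144 was seen. The summed signal of mmu-miR-144-3p lay between -4.02 and 0.21 and that of mmu-miR-144-5p between -1.41 and 3.79 over the 12 arrays, where negative values come from background subtraction. Of 356 kept spots of miR-144-3p and 357 of miR-144-5p, 0 were well above background. The same held for miR-451b, with a highest summed signal of -1.95. The partner strand miR-486a-3p reached 6.09, and miR-486b-3p, from the hairpin opposite that of miR-486a, reached 9.45, with 0 of 344 and 0 of 358 spots above background. Such values say that these miRNAs were not detectable at this brightness, as were 1280 of the 1881 miRNAs on the array, not that they were absent.

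The signal of mmu-miR-486a-5p was even within groups and higher where arrays were brighter. In sham it was 17.2, 9.43, and 14.7. At 3 DPI it was 23.3, 28.4, and 28.1, at 14 DPI it was 26.2, 36.9, and 37.0, and at 42 DPI it was 78.0, 42.0, and 52.3. All sham arrays lay below all arrays of each time point in this unscaled signal, as they did for 27.8, 76.5, and 92% of the 486 miRNAs tested at 3, 14, and 42 DPI. It was detected on 0 of 3 sham arrays, on 2 of 3 at 3 DPI (not replicate 1), on 2 of 3 at 14 DPI (not replicate 1), and on all 3 at 42 DPI. The scanner software's own call marked miR-486a-5p on 10 arrays, sham replicate 1 among them. In all, 106 of the 1881 miRNAs shared with both detected members the pattern of 0 sham arrays and at least 6 of the 9 injury arrays.

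After scaling the order of the groups turned. The scaled level was -4.05, -4.53, and -4.57 in sham and -4.11, -4.45, and -4.00 at 3 DPI. It was -4.49, -4.99, and -4.91 at 14 DPI, and -5.23, -5.04, and -5.15 at 42 DPI. The means were -4.18 ± 0.23 at 3 DPI, -4.38 ± 0.29 in sham, -4.80 ± 0.27 at 14 DPI, and -5.14 ± 0.10 at 42 DPI (SD, n = 3 each, before the floor). Sham overlapped 3 and 14 DPI, and the 42 DPI arrays lay below all others. Same-numbered sham and 14 DPI arrays deviated together from their group means, but no label states that they are paired. No other pair of groups did so on all 3 numbers. Taken by number, the log2 difference of miR-486a-5p at 14 DPI from sham was -0.44, -0.46, and -0.35. The pairing was inferred from these same arrays, and miR-486a-5p was not detected on any sham array. How many of the 486 were lower on all 3 numbers was not counted, so no direction is read from these differences. For 39.1% of the 486 the 42 DPI arrays lay below all of sham. Those 3 arrays also lay under the floor, which is set by the noise of the dimmest array, a sham array.

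**Figure D3:**
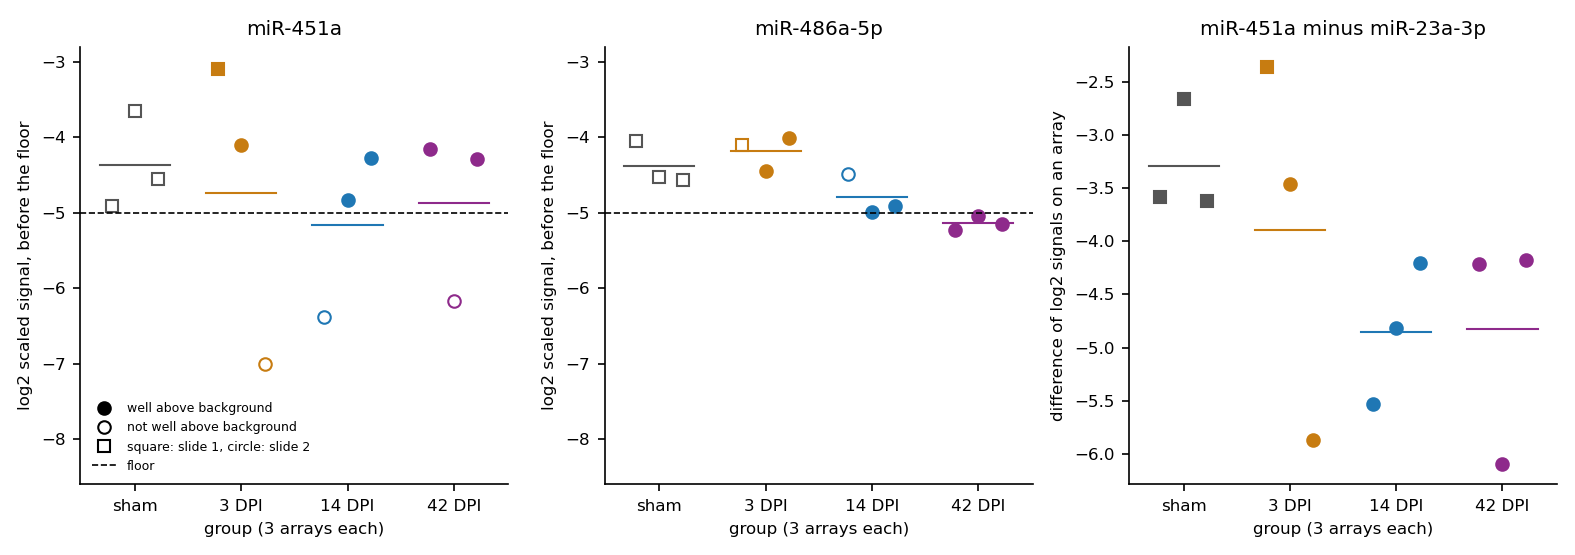
Left and middle, log2 scaled level before the floor of miR-451a and miR-486a-5p on each array (filled, well above background; squares, slide 1; circles, slide 2; dashed line, floor of -5.00; lines, group means). Right, log2 signal of miR-451a minus that of miR-23a-3p on the same array, where all points are filled. The 42 DPI arrays of miR-486a-5p lay between -5.23 and -5.04, under the floor, while those of miR-451a spread from -6.17 to -4.15.

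Of the 4 members, 1 passed the filter of detection on all arrays of a group, miR-486a-5p through 42 DPI alone, and limma with Benjamini-Hochberg adjustment over the 486 miRNAs called it in 2 of the 6 comparisons. Against sham, its log2 change at 3 DPI was 0.20 (SE 0.18, adjusted p = 1). At 14 DPI it was -0.42 (adjusted p = 0.231, or 0.0839 once replicates were blocked in a fit of those 2 groups). At 42 DPI it was -0.62 (95% interval -1.03 to -0.21, adjusted p = 0.0324). Of all 486 miRNAs, 0, 3.91%, and 32.5% were called in these comparisons, and 19.3% were called lower at 42 DPI, so 1 member called there is no more than the background. The call at 42 DPI sets arrays at the floor against sham arrays on which miR-486a-5p was not detected. The sham bound of miR-486a-5p was -4.09, above the mean of each injury group, and neither a fold nor a direction against sham is given.

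Between time points after injury, miR-486a-5p was lower at 42 than at 3 DPI by a log2 change of -0.82 (SE 0.18, 95% interval -1.23 to -0.40, adjusted p = 0.0209), where 37.7% of the 486 were called and 23.7% called lower. All 3 arrays at 42 DPI lay below all 3 at 3 DPI, as did 40.9% of the 486, and the exact permutation test of the unfloored levels gave the smallest p it can, 0.1. On slide 2, with 2 arrays of 3 DPI, the log2 change was -0.78 (limma, adjusted p = 0.0659, with 0 of the 486 called there). The call was also lost without replicate 3 of 3 DPI (adjusted p = 0.0700) and without any 1 of the 42 DPI arrays (0.0531 to 0.0724). As the 42 DPI arrays all stand at the floor, the value of -0.82 is set by it, leaving out 1 of them cannot move it, and the unfloored difference of means was -0.96. The changes of 14 against 3 DPI and of 42 against 14 DPI were -0.61 (adjusted p = 0.149) and -0.20 (adjusted p = 0.603), where 0.617% and 0 of the 486 were called.

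The sign of the change in miR-486a-5p depended on how arrays were made comparable. Without scaling it was higher at 42 DPI than in sham by 1.97 (limma, adjusted p = 0.000117) and at 42 than at 3 DPI by 1.07 (adjusted p = 0.0206). Without scaling 87.9% and 63.4% of the 486 were called in those comparisons, and their median shifted by 2.22 and 1.66. Relative to that median the change of miR-486a-5p was -0.26 and -0.59. With normexp background correction the median shifted by -1.67 against sham at 42 DPI, and the change of miR-486a-5p relative to it was -0.27. Under quantile normalization the change relative to the median was -0.01 against sham and -0.36 against 3 DPI, and neither was called (adjusted p = 0.404 and 0.796). With double the floor, under which its level lay on all arrays, the change was 0.

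**Figure D4:**
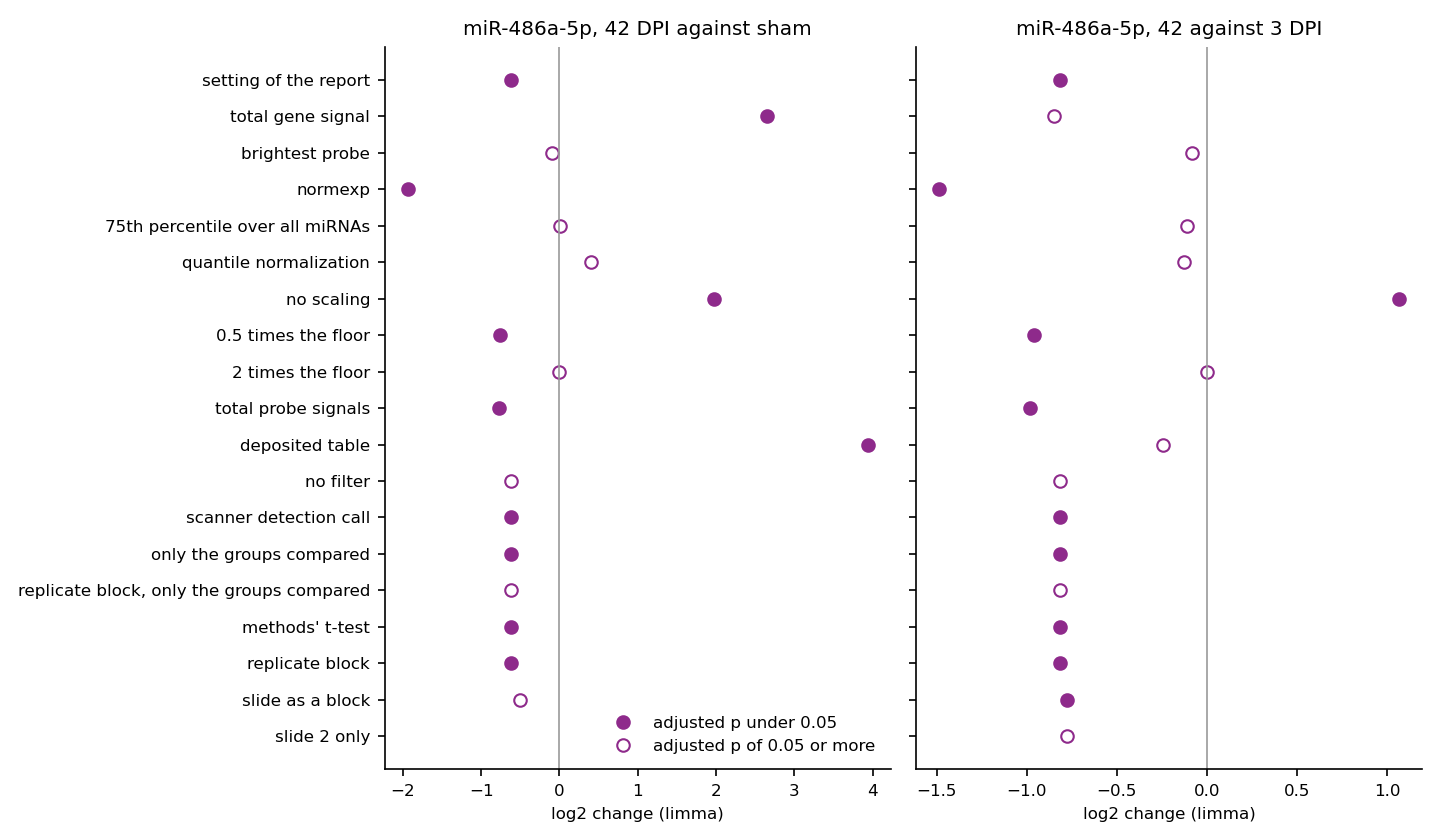
Log2 change of miR-486a-5p fitted by limma at 42 DPI against sham (left) and at 42 against 3 DPI (right) in the setting of the report and under each alternative, filled where the adjusted p over all miRNAs tested was under 0.05. Against sham the values run from -1.94 to 3.94 with 5 alternatives above 0, and against 3 DPI from -1.49 to 1.07 with 1 above 0, that without scaling.

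In the unscaled signal 92% of the 486 miRNAs lay above all of sham at 42 DPI, and the relation to brightness was computed for the 2 detected members only. The raw signal of miR-486a-5p followed the brightness of the arrays closely. Across the 12 arrays its log2 signal and the log2 75th percentile had a Pearson r of 0.96 and a Spearman rho of 0.98 (permutation p = 2e-05 for each, the smallest that 100000 resamples can give, 0.0001 adjusted over the 5 relations computed), with a slope of 0.68. Without the 2 arrays farthest from the median brightness r was 0.93, and on the 8 arrays of slide 2 it was 0.96. For miR-451a r was 0.69 and rho 0.66 (permutation p = 0.0129 and 0.0219, adjusted 0.0215 and 0.0365), and without the 2 farthest arrays r was 0.41, so over the 12 arrays the relation rests on those, while on the 8 arrays of slide 2 r was 0.86. After scaling, the level of miR-486a-5p before the floor was lower on brighter arrays (r = -0.85, rho = -0.76, permutation p = 0.0007 and 0.00532, adjusted 0.00175 and 0.0133), with r of -0.75 without the 2 farthest arrays and -0.94 on slide 2, and that of miR-451a had an r of -0.05 and a rho of -0.08 (permutation p = 0.881 and 0.819), -0.30 without the 2 farthest arrays, and 0.59 on slide 2. The scaled levels of miR-451a and miR-486a-5p, the 2 detected members, had an r of -0.14 and a rho of -0.14 over the 12 arrays (permutation p = 0.67 and 0.662), 0.00 without the 2 farthest arrays, and -0.61 on slide 2. A scaled level is divided by the same 75th percentile, so its relation to brightness is coupled by construction. The permutation p-values of scaled levels with brightness therefore do not test a link between them. Brightness, group, and slide move together here, and their parts in these relations cannot be told apart.

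The difference between miR-451a and miR-23a-3p on the same array does not depend on how arrays are scaled. miR-23a-3p was detected on all 12 arrays, with a scaled level of -1.08 ± 0.22 in sham, -0.84 ± 0.26 at 3 DPI, -0.31 ± 0.47 at 14 DPI, and -0.04 ± 0.09 at 42 DPI (SD, n = 3 each). limma called it higher at 42 DPI than in sham (1.04, adjusted p = 0.0138) and than at 3 DPI (0.80, adjusted p = 0.0343). The difference, log2 miR-451a minus log2 miR-23a-3p, was -3.58, -2.66, and -3.62 in sham. It was -2.36, -3.46, and -5.87 at 3 DPI, -5.53, -4.81, and -4.21 at 14 DPI, and -4.21, -6.10, and -4.18 at 42 DPI. The arrays of 14 and 42 DPI all lay below those of sham, while 3 DPI held both the highest and the second lowest value. How many other miRNAs lie below sham when set against miR-23a-3p was not counted, so this is not read as particular to miR-451a. The log2 change of miR-23a-3p against sham was 0.77 and 1.04 at 14 and 42 DPI, beside a median of 0 and -0.08 over the 486.

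Against sham the mean difference shifted by -0.61 at 3 DPI, -1.56 at 14 DPI, and -1.54 at 42 DPI, with exact permutation p = 0.9, 0.1, and 0.1, of which 0.1 is the smallest these arrays allow (0.9, 0.15, and 0.15 after adjustment over the 3). miR-451a was not detected on the 3 sham arrays, nor on replicate 3 of 3 DPI, replicate 1 of 14 DPI, and replicate 2 of 42 DPI. Its values on those arrays are at most upper limits. At 14 and 42 DPI the shift moved together with the rise of miR-23a-3p. At 3 DPI the sign turned without replicate 3 of that group, to 0.38. The size of the difference is not read, because 2 probe sets have no common scale.

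The scanner software also gives 1 total gene signal per miRNA, and on the sham arrays it departed from the spots. For most miRNAs it equals the sum of the total signals of their own probes. For miR-451a both were within 1% of each other on the 6 arrays where it was detected. On sham replicates 2 and 3 and on 42 DPI replicate 2 the total gene signal was 69.4, 116.7, and 34.2, against sums of the probe totals of 3.68, 3.15, and 5.18. On the remaining 3 arrays it stood at 0.1, the lowest value of that column. The total gene signal of miR-451a was therefore highest on a sham array on which 1 of its 30 spots was well above background. Over all miRNAs that the software called detected, 23.5 to 37.0% per array had a total gene signal more than 1% away from the sum of their probes, and 18.5 to 27.4% had one over 2-fold higher. Where the added signal comes from was not tested.

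**Figure D5:**
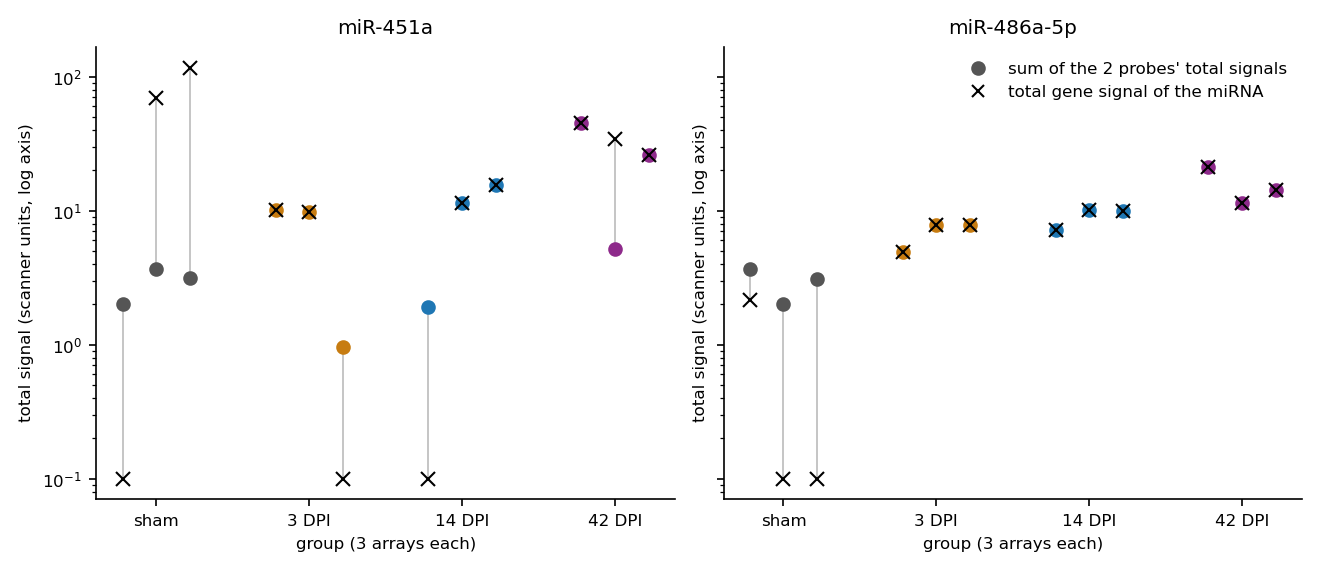
Total gene signal of the miRNA (crosses) and the sum of its 2 probes' total signals (points) on each array (log axis, scanner units, replicates 1 to 3 from left to right). For miR-451a the crosses leave the points on the 6 arrays where it was not well above background, up to 116.7 against 3.15 on sham replicate 3. For miR-486a-5p they leave them on the 3 sham arrays.

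The table of processed values that the authors deposited is on a log2 scale, and its scaling and centering are not stated. In it, miR-451a was 2.95, 3.55, and 2.36 in sham and 4.25, 3.25, and 3.75 at 3 DPI. It was 2.78, 2.42, and 3.15 at 14 DPI, and 3.79, 3.67, and 3.55 at 42 DPI. In each group 1 value was the mean of the other 2 to within 1e-06: sham replicate 1, 3 DPI replicate 3, 14 DPI replicate 1, and 42 DPI replicate 2. These are the dimmest array of miR-451a in each group, none of them well above background. The spread of these columns thus understates the spread between arrays seen in the spots, with an SD at 42 DPI of 0.12 in the table against 1.13 in the scaled levels. Over all miRNAs above the table's lowest value, 18.1 to 30.2% in a group had such a value. Its origin was not tested.

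For miR-486a-5p the table gave -1.64, -2.13, and -1.15 in sham, where replicate 1 is again the mean of the others. It gave 3.15, 2.39, and 2.09 at 3 DPI, 1.76, 2.23, and 1.75 at 14 DPI, and 2.39, 2.19, and 2.32 at 42 DPI. All sham values lay below all others. In a limma fit of the table miR-486a-5p was higher than sham by 4.18, 3.55, and 3.94 (adjusted p = 1.30e-06, 3.80e-06, and 1.32e-06), where 19.5, 29.4, and 51.2% of the 486 were called. By the spots miR-486a-5p was detected on 0 of the 3 sham arrays. Both miR-144 strands stood at the lowest value of the table, -3.32, on all 12 arrays.

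A list of 10 other miRNAs that red cells hold in quantity, among them miR-16-5p, miR-25-3p, and miR-22-3p, was read beside the members. Many tissues also express them. All 10 are on the array, 8 were tested, and 0 of the 8 were called higher in any comparison. Of all 486, 0 were called at 3 DPI against sham. Called higher than sham were 1.65% at 14 DPI and 13.2% at 42 DPI, so 0 of 8 is not set apart from that share. At 3 and 14 DPI against sham 0 were called, and at 42 DPI 2 of the 8 were called lower, miR-183-5p (-2.48, adjusted p = 0.0141) and miR-96-5p (-1.38, adjusted p = 0.0318), which share a cluster expressed in sensory organs. That is 2 of 8 beside 19.3% of the 486 called lower. Of 8 alternatives in scaling, signal, or block, the call held in 5 for miR-183-5p and in 2 for miR-96-5p, and with slide as a block 0 of the 486 were called. Without scaling both lay above sham at 42 DPI, below the median shift of 2.22. The median change of the 8 was -0.02, -0.08, and -0.02 at 3, 14, and 42 DPI, beside 0, 0, and -0.08 over all 486. Their summed scaled level, on the log2 scale, spanned 2.08 to 2.61 in sham and 1.92 to 2.68 at 3 DPI. At 14 DPI it spanned 1.83 to 2.46, at 42 DPI 2.20 to 2.28, and all 4 ranges overlapped.

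The label of the preparation was read against miRNAs of other cells. Of 5 miRNAs of white blood cells and microglia, 0 were detected on all 3 sham arrays, each of which detected 243 to 285 of the 1881 miRNAs. miR-142a-3p and miR-142a-5p, both from that list, were detected on 0 sham arrays, and over all 12 arrays on 5 and 0. Of the same list, miR-223-3p was detected on 10 of the 12 arrays, 1 of them sham. miR-150-5p and miR-146a-5p were each detected on 6, 0 of them sham. Of the 4 tested, 3 were called higher at 42 DPI than in sham (13.2% of the 486 were), miR-150-5p (1.29, adjusted p = 0.00968), miR-146a-5p (0.47, adjusted p = 0.0261), and miR-142a-3p (0.44, adjusted p = 0.0484), and miR-150-5p was also called at 14 DPI (1.21, adjusted p = 0.0200), where 1.65% of the 486 were called higher. miR-146a-5p and miR-142a-3p entered the 486 through 42 DPI alone, the group in which they were then called. miR-150-5p entered through 14 and 42 DPI alone, again the groups in which it was called higher than sham. With normexp, which shifted the median of the 486 by -1.67, all 3 had changes below 0 at 42 DPI, and relative to that median these were 0.46, 0.034, and 0.056. None of the 3 was detected on a sham array. Only for miR-150-5p did the mean exceed the sham bound, at least 1.33-fold at 14 DPI and 1.40-fold at 42 DPI. The summed level of the 5 was -2.85 to -2.43 in sham, where none of the 5 was detected on all arrays, and -2.89 to -2.63 at 3 DPI. At 14 DPI it was -2.85 to -2.08, overlapping sham as at 3 DPI, and at 42 DPI it was -2.29 to -1.98. The neuronal miRNAs miR-9-5p, miR-128-3p, miR-137-3p, and miR-138-5p were detected on all 12 arrays, as were 230 of the 1881 in all. limma called 2 of the 4 higher at 42 DPI than in sham (13.2% of the 486 were), miR-128-3p (1.05, adjusted p = 0.0227) and miR-137-3p (0.59, adjusted p = 0.0156). Of 2 oligodendrocyte miRNAs, miR-219a-2-3p was called higher at 42 DPI (1.23, adjusted p = 0.00994), and with normexp its change relative to the median was 1.58. With slide as a block 0 of the 486 were called at 42 DPI against sham, so none of these calls held there. Neither of the 2 endothelial and platelet miRNAs, miR-126a-3p and miR-126a-5p, was called. What part any of these cells have in the signal of miR-451a and miR-486a-5p was not tested.

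Among the 230 miRNAs detected on all 12 arrays, those whose scaled level was most like that of miR-451a were miR-195a-5p (Pearson r = 0.86), miR-1839-5p (0.85), miR-674-3p (0.79), miR-361-5p (0.79), and miR-25-3p (0.79). The r of all 230 with miR-451a ran from -0.59 to 0.86 with a median of 0.13. On slide 2 alone, over 8 arrays, the 5 had r from 0.74 to 0.91. They are the top of 230 values over 12 arrays that share one scaling, and each spans a narrow range where miR-451a spans 3.92: miR-195a-5p lay between -0.91 and 0.19. These are descriptions and carry no test.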

How the data were processed

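Per the labels and file headers, RNA of microglial exosomes was labeled with cyanine 3 and hybridized to single-color Agilent miRNA arrays, and the authors deposited 1 file of spot intensities per array, read with Feature Extraction 10.7.1.1, background-subtracted, with no scaling between arrays. The authors further deposited a log2 table of processed values, whose scaling is not stated and which was used as an alternative only. The other columns deposited by the authors are flags, here used to drop control and outlier spots and to mark spots well above background.

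Spots kept were averaged per probe, and a miRNA's probes were summed. Signals were divided by the array's 75th percentile, taken over 230 miRNAs that every array detected, floored at -5.00 on the log2 scale (the highest, over arrays, of the 99th percentile of negative controls over the 75th percentile), and taken to log2. limma 3.58.1 (R 4.3.3) compared 486 miRNAs, those that every array of some group detected, in 1 fit over 12 arrays without covariates, two-sided, called at a Benjamini-Hochberg adjusted p under 0.05. Permutation tests, correlations, and figures used Python 3.11.15 with NumPy 2.4.6, pandas 2.3.3, SciPy 1.17.1, and Matplotlib 3.10.9. The fit was tested on simulated data.

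The members and all lists were chosen with earlier results of these data known, and the lists come from general knowledge. The miRNAs named are the 4 members, other strands of their hairpins, miR-23a-3p, the 5 most like miR-451a, and list miRNAs called by limma, plus the list miRNAs given to say what a list holds. Same-numbered arrays of sham and 14 DPI deviated together from their group means (r = 0.83, 0.44, and 0.75), so the numbers pair those groups by this check alone, and the other pairs of groups had mixed signs. Alternatives changed the signal column, background correction, scaling, floor, filter, groups in the fit, the block (replicate or slide), the test (the methods' t-test), used the deposited table, or left out each array. Chosen after seeing the data were 2 more, the sum of probe total signals and a replicate block when each fit held just its own pair of groups.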

Additional observations from a re-analysis of the deposited data

Results flagged for a closer look

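The changes of miR-486a-5p against sham at 42 and at 3 DPI differed by a log2 value of -0.82 (limma, adjusted p = 0.0209, lower on 3 of 3 arrays at 42 DPI than on all arrays at 3 DPI), which is the test of the difference between those time points itself. The value is set by the floor at 42 DPI, and the unfloored difference was -0.96. On slide 2 alone it was -0.78 (adjusted p = 0.0659). The scaled level was lower on brighter arrays (r = -0.85 over 12 arrays), a relation coupled by construction because brightness is the divisor of that level. What part brightness has in the difference was not tested. Groups of 3 arrays are too small for a test of single outlying arrays, so the low arrays of miR-451a were not tested as such.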

How the results depend on the processing

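Brightness, slide, and group size limit these results: dim miRNAs were not detected on sham arrays, slide 1 held sham, and 1 array could decide a call. The cause of each change below was not tested, except that fewer arrays or miRNAs entered some fits by construction. In the setting of the report, 0, 0, and 1 members were called against sham at 3, 14, and 42 DPI, and 0, 0, and 1 for 14 against 3, 42 against 14, and 42 against 3 DPI. The deposited table called 1, 1, and 1 against sham and 0 for 42 against 3 DPI. normexp called 1 at 14 DPI against sham and 1 for 42 against 14 DPI, and without scaling 1 was called at 14 DPI. Both calls fell to 0 with the brightest probe, quantile normalization, the 75th percentile over all miRNAs, no filter, and the replicate block where each fit held just 2 groups (adjusted p = 0.0783 and 0.0813). The call against sham was also lost with slide as a block (-0.50, adjusted p = 0.367), and that of 42 against 3 DPI with the total gene signal and on slide 2 only. By construction neither could be called with double the floor, which lies above miR-486a-5p on all arrays. The same holds for only miRNAs detected on all 12 arrays, which leaves every member out. Leaving out each array in turn gave 0 to 1 called at 14 and 42 DPI against sham, for 14 against 3, and for 42 against 3 DPI. The call at 42 DPI against sham was lost without sham replicate 1 (adjusted p = 0.113) or 2 (0.0578) or any 1 array of 42 DPI (0.0760 to 0.0868), and without replicate 1 of 14 DPI miR-486a-5p was called lower at 14 DPI (-0.57, adjusted p = 0.0417) and for 14 against 3 DPI (-0.77, adjusted p = 0.0242). The fit with replicate number as a block over all 12 arrays kept both calls (1 and 1, adjusted p = 0.0263 and 0.0326) and changed no other.

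The change of miR-486a-5p turned sign against sham at 3 DPI with the brightest probe (-0.011) and normexp (-0.45). It turned at 14 DPI with the total gene signal (2.96), quantile normalization (0.25), no scaling (1.22), and the deposited table (3.55), and at 42 DPI with the total gene signal (2.65), no scaling (1.97), quantile normalization (0.40), the 75th percentile over all miRNAs (0.013), and the deposited table (3.94). It turned for 14 against 3 DPI without scaling (0.31), for 42 against 14 DPI with quantile normalization (0.15), the 75th percentile over all miRNAs (0.15), no scaling (0.75), and the deposited table (0.38), and for 42 against 3 DPI without scaling (1.07). Part of this is a shift of all miRNAs. Relative to the median of the 486, the turned values of no scaling, quantile normalization, and the 75th percentile over all miRNAs were -0.59 to 0.01, those at 3 DPI were -0.011 and -0.06, and those of the total gene signal (2.57 and 2.11) and the deposited table (3.41, 3.50, and 0.24) stayed above 0. The shift of miR-451a against miR-23a-3p at 3 DPI turned in the deposited table (0.59) and ran from -1.38 to 0.38 when 1 array was left out, positive only without replicate 3 of 3 DPI. At 14 and 42 DPI it stayed negative under all alternatives run, from -4.27 to -0.95 and from -2.45 to -0.46. Over all 486 miRNAs, counts called at 42 DPI against sham ran from 0 with slide as a block to 429 with normexp, beside 158.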
